A study of Mus musculus with 5 samples.

Results

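The genes described here encode the vacuolar proton pump (V-ATPase), its accessory proteins and the transporters and enzymes that move acid and base with it. They were taken by symbol from a list of 33 genes, and all 33 were among the 32285 genes of the count matrices. The list holds 10 genes of the membrane-embedded V0 sector, 12 of the catalytic V1 sector, 2 accessory proteins (Atp6ap1 and Atp6ap2), 2 genes of a lysosomal chloride-proton exchanger (Clcn7 and its partner Ostm1), 6 acid-base genes (the carbonic anhydrases Car2 and Car12 and the anion exchangers Slc4a1, Slc4a2, Slc4a9 and Slc26a4) and 1 transcription factor, Foxi1. Kidneys were sequenced as single cells from male wild-type mice of the C57BL/6 strain, whose age was between 8 and 10 weeks. The control mice received vehicle and were taken at week 0 (1 library). The other mice received aristolochic acid I, a plant toxin that injures the proximal tubule, intraperitoneally at 3 mg/kg every 3 days over 2 weeks and were taken at week 2 (acute kidney injury, AKI, 2 libraries) or, after a further 2 weeks without injections, at week 4 (chronic kidney disease, CKD, 2 libraries).

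The V-ATPase splits ATP in its V1 sector and moves protons through its V0 sector. In most cells it acidifies lysosomes and endosomes, while in intercalated cells (IC) of the collecting duct and in bone-resorbing osteoclasts it also sits at the cell surface and secretes acid. Several subunits exist as isoforms encoded by separate genes: a kidney B subunit (Atp6v1b1) and a ubiquitous one (Atp6v1b2), for example, or the a subunits Atp6v0a4 of acid-secreting epithelia and Tcirg1 of osteoclasts. Type A IC secrete acid and carry the chloride-bicarbonate exchanger Slc4a1 (AE1), whereas pendrin-positive non-A IC carry Slc26a4 (pendrin), and Foxi1 is the forkhead factor that IC require.

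Promoters of 4 genes are shown because the comparison of IC with macrophages turns on them: the IC isoforms Atp6v1b1 and Atp6v1g3, the macrophage isoform Tcirg1, and the catalytic subunit Atp6v1a that both cell types use. Each stretch holds 250 bases before and 50 from the annotated start on (RefSeq, GRCm38.p6), read 5′ to 3′ on the gene's strand. Atp6v1b1 lies at chr6:83742767-83743066 on the plus strand, Atp6v1g3 at chr1:138273488-138273787 on the plus strand, Tcirg1 at chr19:3907084-3907383 on the minus strand (the first of 3 promoters listed for it) and Atp6v1a at chr16:44139210-44139509 on the minus strand. Capitals mark a match to the forkhead core TGTTTA in Atp6v1b1 and to the E-box CACGTG in Atp6v1a, and the other stretches hold neither.
Atp6v1b1 promoter: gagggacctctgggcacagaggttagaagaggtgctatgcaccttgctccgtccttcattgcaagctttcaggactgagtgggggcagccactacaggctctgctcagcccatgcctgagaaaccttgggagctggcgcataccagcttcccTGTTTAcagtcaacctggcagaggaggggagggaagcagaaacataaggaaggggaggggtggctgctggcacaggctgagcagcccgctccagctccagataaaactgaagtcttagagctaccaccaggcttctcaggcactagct
Atp6v1g3 promoter: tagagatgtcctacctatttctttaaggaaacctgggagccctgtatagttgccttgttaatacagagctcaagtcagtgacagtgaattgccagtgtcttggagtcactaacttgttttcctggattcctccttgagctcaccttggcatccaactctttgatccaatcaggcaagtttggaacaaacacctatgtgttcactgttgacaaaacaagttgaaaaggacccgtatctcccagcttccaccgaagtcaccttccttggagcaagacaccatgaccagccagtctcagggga
Tcirg1 promoter: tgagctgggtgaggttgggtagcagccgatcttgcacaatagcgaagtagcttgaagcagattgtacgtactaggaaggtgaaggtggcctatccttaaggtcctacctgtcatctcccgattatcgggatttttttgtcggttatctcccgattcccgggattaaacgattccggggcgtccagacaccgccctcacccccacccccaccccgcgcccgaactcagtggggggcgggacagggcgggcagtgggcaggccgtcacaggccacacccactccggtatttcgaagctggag
Atp6v1a promoter: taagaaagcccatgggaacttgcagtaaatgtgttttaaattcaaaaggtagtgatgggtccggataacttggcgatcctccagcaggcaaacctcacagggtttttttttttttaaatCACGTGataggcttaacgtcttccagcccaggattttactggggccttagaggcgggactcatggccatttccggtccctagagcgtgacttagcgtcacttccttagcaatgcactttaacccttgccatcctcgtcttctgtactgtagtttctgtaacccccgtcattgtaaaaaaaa

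Of the 33 genes, 24 had a promoter in the RefSeq table. The E-box CACGTG, a letter run that factors of lysosomal genes can bind, stood in 5 of these 24 genes (Atp6v0b, Atp6v0d1, Atp6v0e, Atp6v1a and Clcn7), against 8.09% of all 27025 genes with a promoter listed. None of the 24 held the 10-base CLEAR motif, which contains the E-box and was found in 0.370% of all genes. The forkhead core TGTTTA stood in 3 of the 24 (Atp6v1b1, Clcn7 and Car12), against 15.1% of all genes. Both strands were searched, and a match describes the letters only.

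Single cells were grouped by clustering without the 33 genes and named by markers of other genes, so each name marks a resemblance. Of 72896 deposited barcodes, 53632 cells were used, with a median of 2910 to 5620 UMIs per cell in the 5 libraries (a UMI, unique molecular identifier, counts 1 captured RNA molecule). The control stood apart: 99 of the 132 control barcodes shared with CKD 2 belonged to a CKD 2 cell with over 20 times as many UMIs and were left out. IC-like cells numbered 350 in the control, 100 and 69 in AKI, 110 and 56 in CKD, and held 27.8 to 41.0 UMIs of the 8 IC markers per 10000 UMIs, against 0.0329 to 0.619 in macrophage-like cells. Macrophage-like cells numbered 634, 760, 1155, 1273 and 688 in the same order. Subclusters were set aside where markers of another cell type reached 15% of that type's level or numbered 3 or more among the top genes. For macrophage-like subclusters, dendritic cell markers counted among the top genes only. The rule removed 54.2% of the cells named IC-like (77.1% in CKD 1) and 27.6% of those named macrophage-like (45.0% in CKD 1). A kept IC-like subcluster of 212 cells still had 2 markers of the thick ascending limb, Egf and Slc12a1, among its top genes. Levels are UMIs of a gene per 10000 UMIs of the class in a library, a scale on which genes of different length can be compared because a 3′ library counts molecules. Intervals are exact 95% intervals for counting error only. T lymphocyte-like cells, which should lack genes of tubular cells, were taken to show the level left by free RNA, an assumption that was not tested. It does not cover genes that are not tubular, such as Tcirg1 and Acp5, which these cells may use themselves. The labels do not name the mouse behind a library, so p-values measure the spread between these libraries, which may be technical. In tests over all 5 libraries that spread also holds differences between control, AKI and CKD.

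IC-like cells carried more V-ATPase RNA than any other class that had at least 20 cells in a library. The 22 subunit genes together held 167 to 216 UMIs per 10000 in IC-like cells (median 197 over 5 libraries), 45.9 to 59.3 in principal cell (PC)-like, 38.5 to 43.6 in connecting tubule (CNT)-like and 30.3 to 37.1 in proximal tubule (PT)-like cells. T lymphocyte-like cells held 12.1 to 14.7. Macrophage-like cells covered a wider range, from 20.2 to 78.9. The scar-associated (SM)-like macrophages, named by Acp5, Ctsk and Mmp9, reached 118 in a CKD library and 20.6 in the control. No IC-like library overlapped with a library of another class in this sum.

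**Figure D1:**
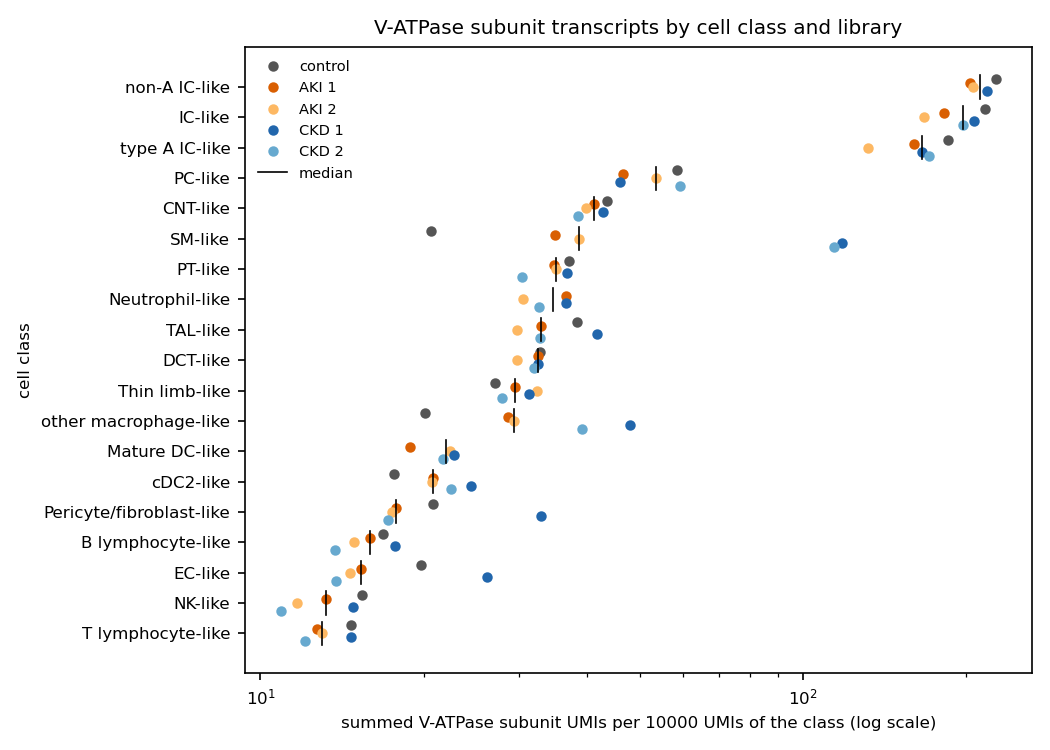
Summed UMIs of the 22 V-ATPase subunit genes per 10000 UMIs of the class (x axis, log scale) for each cell class (y axis), with 1 point per library coloured by library and a bar at the median. The IC-like points lie between 167 and 216, the SM-like points of the 2 CKD libraries stand apart from those of the other 3 libraries, and NK-like and T lymphocyte-like cells lie lowest, at 10.9 to 15.4 and 12.1 to 14.7.

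The question put to the genes was which isoforms IC-like cells used and which macrophages used. In the G subunit, which belongs to the stalk of V1, Atp6v1g3 held 54.5 UMIs per 10000 in the control's IC-like cells, 54.7 and 53.2 in AKI, and 58.2 and 63.9 in CKD. In macrophage-like cells it held 0.623, 0.108, 0.0542, 0.158 and 0.0262 in the same order, below the T lymphocyte-like level of each library (0.658, 0.197, 0.155, 0.241 and 0.0565). Atp6v1g3 was thus the most abundant of the 33 genes in IC-like cells and below the T lymphocyte-like level in macrophage-like cells. Atp6v1g1, the ubiquitous isoform, held 2.37 to 2.97 in IC-like cells and 1.44, 2.58, 2.58, 6.29 and 5.57 in macrophage-like cells. The Atp6v1g3 share of all G subunit UMIs had a median of 95.4% in IC-like cells.

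In the B subunit, which binds nucleotide beside the catalytic A subunit, Atp6v1b1 held 6.44, 3.95, 3.37, 3.88 and 3.65 UMIs per 10000 in IC-like cells, listed as control, AKI 1, AKI 2, CKD 1 and CKD 2. Macrophage-like cells held 0.126, 0.0114, 0.00717, 0.0109 and 0.00299, close to T lymphocyte-like cells at 0.106, 0.0214, 0.0142, 0.0183 and 0.00615. Both ranges fell far under that of IC-like cells, and the control held the most in each. Atp6v1b1 made up 88.5, 77.7, 79.3, 79.7 and 76.1% of B subunit UMIs in IC-like cells. In macrophage-like cells it made up 23.0% in the control and 0.0692 to 1.78% in the other libraries, where Atp6v1b2 made up the rest. The control's 23.0% stood beside 30.3% (95% interval 21.5 to 40.4%) in its T lymphocyte-like cells. The share differed by 75.0 ± 5.52 percentage points between IC-like and macrophage-like cells (SD, n = 5 libraries, from 65.5 to 79.4; exact paired permutation test, two-sided p = 0.0625, the smallest that 5 pairs can give).

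In the a subunit, the large V0 protein that forms the proton path, Atp6v0a4 held 9.86, 8.76, 7.38, 9.82 and 8.03 UMIs per 10000 in IC-like cells and 0.269, 0.0457, 0.0494, 0.0774 and 0.00972 in macrophage-like cells. Tcirg1 ran the other way, with 0.0296, 0.0490, 0.138, 0.0384 and 0.0662 in IC-like cells, below the 0.168 to 0.190 of T lymphocyte-like cells. It made up 19.8 to 36.6% of a subunit UMIs in T lymphocyte-like cells, so their level was not read as free RNA here. In macrophage-like cells Tcirg1 held 0.672, 1.12, 1.11, 2.11 and 2.69. The 2 isoforms did not overlap between the classes in any library. Atp6v0a4 made up 89.5 to 93.9% of a subunit UMIs in IC-like cells and 0.325 to 19.5% in macrophage-like cells, a difference of 86.9 ± 7.36 points (SD, n = 5, exact paired permutation p = 0.0625). Tcirg1 made up 48.7% of a subunit UMIs in macrophage-like cells of the control, 66.9% in AKI 2, within 1 point of that in AKI 1, and 85.5 and 89.9% in CKD, 70.9 ± 16.5 points above IC-like cells (SD, n = 5, exact paired permutation p = 0.0625). The remaining a subunits, Atp6v0a1 and Atp6v0a2, held at most 0.408 in any IC-like and 0.330 in any macrophage-like library. Atp6v0a4 shares exon sequence with an overlapping gene on its strand, so a part of its count could belong to that gene.

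In the C subunit, a clamp between the sectors, Atp6v1c2 held 8.67, 5.90, 5.34, 7.30 and 6.48 UMIs per 10000 in IC-like cells and at most 0.166 in macrophage-like cells. Atp6v1c1 held 0.461 to 0.662 in IC-like cells and 0.238 to 1.39 in macrophage-like cells. In the d subunit, which links the V0 ring to the V1 stalk, the pattern was different from that of the other families. Atp6v0d2 held 10.4, 8.71, 7.73, 9.23 and 9.93 in IC-like cells, 92.5 to 94.4% of their d subunit UMIs. Macrophage-like cells held 0.0941, 0.0711 and 0.155 in the control and AKI libraries but 4.62 and 4.45 in the CKD libraries. Atp6v0d2 was thus the only one of the 5 IC isoforms that stood well above the T lymphocyte-like level (0.0219 to 0.102) in macrophage-like cells of CKD.

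**Figure D2:**
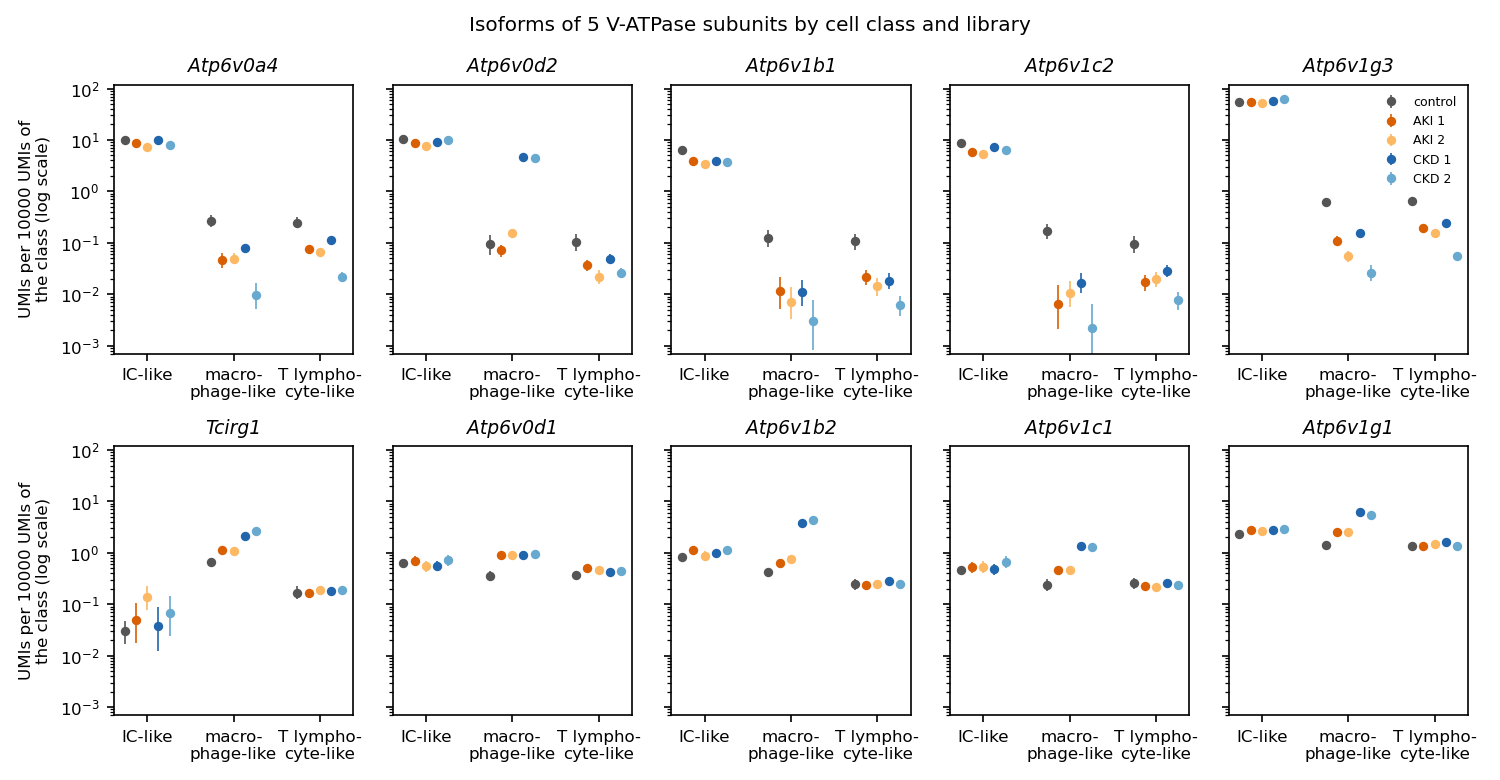
UMIs per 10000 UMIs of the class (y axis, log scale) of 10 isoform genes in IC-like, macrophage-like and T lymphocyte-like cells (x axis). Points are libraries and bars exact 95% Poisson intervals for counting error; the upper row holds the isoforms that led in IC-like cells, of which Atp6v0d2 alone stands above 4 in macrophage-like cells of the CKD libraries.

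In the test over 5 libraries with the library as a term, 31 of the 33 genes were tested, and 19 were higher and 6 lower in IC-like than in macrophage-like cells (edgeR quasi-likelihood test, adjusted p under 0.05). Most genes differ between such classes: of 12485 genes tested, 63.2% passed, 29.8% higher and 33.4% lower. The median log2 difference was 1.63 over the 31 genes and -0.08 over all genes. The largest differences were those of Atp6v1g3 (343-fold, log2 8.42 ± 0.75 SE), Atp6v1c2 (277-fold, log2 8.11 ± 0.78 SE) and Atp6v1b1 (189-fold, log2 7.56 ± 0.63 SE) among the subunits. Tcirg1 had the largest difference towards macrophages, with a fold of 0.0287 (log2 -5.12 ± 0.35 SE). Scaling by library totals in place of the TMM factors was an alternative chosen after seeing the data. It moved the median of all genes from -0.08 to 0.52 and left 23 of the 31 genes higher and 1, Tcirg1, lower. Of all 12485 genes, 5620 were then higher and 2613 lower. Atp6v0d1, Atp6v1c1, Atp6v1g1, Clcn7 and Ostm1 then no longer passed, and Ostm1 changed sign. Of the 25 genes that passed, 18 passed under every alternative run. Atp6v0d2 was 13.9-fold higher (log2 3.80 ± 1.13 SE, edgeR adjusted p = 0.0164) but did not pass without AKI 1 or without AKI 2 (log2 2.97 and 3.30, edgeR adjusted p = 0.0612 and 0.0671). Atp6v1c1, Clcn7 and Ostm1 did not pass without any one of the AKI and CKD libraries. Atp6v0d1 failed without AKI 1, AKI 2 or CKD 1, and Atp6v1g1 without AKI 2, CKD 1 or CKD 2. Ostm1 was called lower although its mean level was 0.172 in IC-like and 0.161 in macrophage-like cells.

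The subunits without a cell-specific isoform were also more abundant in IC-like cells. The catalytic A subunit Atp6v1a held 23.0, 14.9, 11.0, 16.0 and 16.1 UMIs per 10000 there and 0.787 to 0.798 in the control and AKI 1, nearly the same in AKI 2, and 2.96 and 2.97 in CKD in macrophage-like cells (7.66-fold, log2 2.94 ± 0.36 SE, edgeR adjusted p = 0.00014). Atp6v1e1 of the stalk held 11.0 to 15.2 against 1.34 to 3.98 (3.81-fold, edgeR adjusted p = 0.00036). Atp6v1d and Atp6v1f of the central shaft and the regulatory subunit Atp6v1h were 3.11-, 2.26- and 3.09-fold higher. For the ring subunits Atp6v0c, with 24.2 to 38.4 in IC-like and 4.34 to 25.3 in macrophage-like cells, and Atp6v0b, with 9.65 to 13.4 and 3.56 to 9.95, the macrophage-like cells of CKD overlapped with IC-like cells. Neither passed, with edgeR adjusted p = 0.116 for Atp6v0c and 0.119 for Atp6v0b. Atp6v0c has processed pseudogenes of near-identical sequence, so its counts are uncertain. The accessory proteins Atp6ap1, which assists assembly, and Atp6ap2, the (pro)renin receptor, were higher in IC-like cells by 1.81 and 0.95 on the log2 scale.

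Of the acid-base genes, 5 were among the genes that set IC-like cells apart. Car2, the cytosolic carbonic anhydrase that supplies protons to the pump, held 31.9, 35.4, 24.8, 37.1 and 35.8 UMIs per 10000 in IC-like cells and 0.623, 0.159, 0.157, 1.31 and 1.01 in macrophage-like cells (46.1-fold, log2 5.53 ± 0.47 SE). Car12, a membrane-bound carbonic anhydrase, held 14.2, 7.68, 8.03, 11.2 and 6.72 in IC-like cells and at most 0.269 in macrophage-like cells, below T lymphocyte-like cells in every library. Slc26a4 held 11.5, 7.96, 7.51, 11.0 and 7.54, Slc4a9, a further anion exchanger of IC, 6.51, 3.41, 4.25, 4.61 and 3.40, and Slc4a1 4.37, 2.15, 0.949, 2.10 and 0.839. These 3 exchangers were 129- to 306-fold higher than in macrophage-like cells. Slc4a2, an exchanger found in many cells, held 0.431 to 0.555 in IC-like and 0.123 to 0.565 in macrophage-like cells, ranges that overlapped (edgeR adjusted p = 0.355), and its exons overlap a readthrough gene on the same strand. Foxi1 held 5.94, 5.14, 5.56, 3.04 and 5.18 in IC-like cells and 0.00299 to 0.0807 in macrophage-like cells. The lysosomal exchanger ran lower in IC-like cells for Clcn7, with 0.110 to 0.233 against 0.0583, 0.233, 0.256, 0.454 and 0.460 in macrophage-like cells (fold 0.462, edgeR adjusted p = 0.0371).

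Within the 2 CKD libraries alone, 20 genes were higher and 7 lower in IC-like cells, where 58.1% of 12070 genes passed (27.0% higher and 31.2% lower). The gap in Atp6v0d2 was then 1.61-fold (log2 0.69 ± 0.13 SE), and that in Atp6v1g3 638-fold. Atp6v1b2, the ubiquitous B subunit, held 0.990 and 1.15 UMIs per 10000 in IC-like cells of CKD against 3.74 and 4.32 in macrophage-like cells and passed here (fold 0.203, edgeR adjusted p = 3.6e-06) but not over the 5 libraries (edgeR adjusted p = 0.0994). Of the V0 ring, macrophage-like cells of CKD held Atp6v0b at a mean of 9.47 against 12.3 in IC-like cells, and Atp6v0c at 25.3 and 24.1 against 36.0 and 29.4. Neither passed (log2 -0.02 ± 0.13 SE and 0.01 ± 0.12 SE after TMM scaling).

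Beyond the list, the other genes of the pathway also differed in both directions, as did all genes tested (29.8% higher and 33.4% lower). Of 12 tested assembly factors and regulators of the pump, 6 were higher and 3 lower in IC-like cells, and of 18 tested further acid-base transport genes, 11 were higher and 4 lower. Those genes took part in the clustering that defined the classes, so their counts are a description. Among those with large differences were the carbonic anhydrase Car15, with 22.3 UMIs per 10000 on average in IC-like and 0.190 in macrophage-like cells and the ammonia transporter Rhbg (5.04 and 0.0461). Of the assembly factors and regulators, Ncoa7 held 3.17 and 0.262 and Rnasek 15.2 and 3.04.

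Type A IC-like and non-A IC-like cells were separated by markers outside the list (Aqp6, Dmrt2 and Kit against Insrr, Oxgr1, Spink8 and Hmx2), and Slc4a1 and Slc26a4 followed that split. Further IC-like cells were named neither type by these markers: 109 in the control, 33 in AKI 1 and 37 in CKD 1. They held Slc26a4 at 18.7, 3.62 and 9.90 UMIs per 10000 in that order and Slc4a1 at no more than 0.458. Slc4a1 held 13.9, 3.78, 1.63, 5.58 and 1.85 UMIs per 10000 in type A IC-like cells of control, AKI 1, AKI 2, CKD 1 and CKD 2. In non-A IC-like cells it held 0.695, 0.543, 0 and 0.923, without CKD 2, which had 15 such cells and fell under the minimum of 20. The 0 in AKI 2 came from 20 cells with 446838 UMIs, so 3 UMIs, or 0.0671 per 10000, remain possible. Slc26a4 was the mirror image, at 14.8, 16.3, 17.2 and 13.8 in non-A and 0.669, 0.892, 1.26, 5.29 and 2.29 in type A IC-like cells. The type A cells of the CKD libraries thus held more Slc26a4 than those of the other libraries, beside 7.27 to 10.6 UMIs of the non-A markers per 10000, against 4.29 to 8.81 in the control and AKI. The marker ranges overlapped, and the part of mixed cells in these values was not tested.

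The 22 subunit genes together held 203 to 227 UMIs per 10000 in non-A and 132 to 185 in type A IC-like cells, without overlap. Single subunits are to be read beside that sum. Some, such as Atp6v0c (34.7 to 42.6 in non-A, 18.2 to 30.3 in type A), differed between the types, while others overlapped. Atp6v1c2 held 9.65, 8.20, 8.03 and 8.10 UMIs per 10000 in non-A and 3.24 to 6.39 in type A IC-like cells, and Car12 held 11.3 to 15.4 and 3.89 to 9.29, with no overlap in either. Slc4a9 held 4.15 to 7.34 in non-A and 2.26 to 3.38 in type A IC-like cells. Atp6v1g3 held 59.9 to 61.8 in non-A and 37.1 to 56.1 in type A IC-like cells. Atp6v1b1, by contrast, held 3.25 to 6.07 in non-A and 3.48 to 7.44 in type A IC-like cells, and Foxi1 3.25 to 6.06 and 2.76 to 6.14. Type A and non-A cells come from the same libraries with few cells each, and no test was planned for them.

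**Figure D3:**
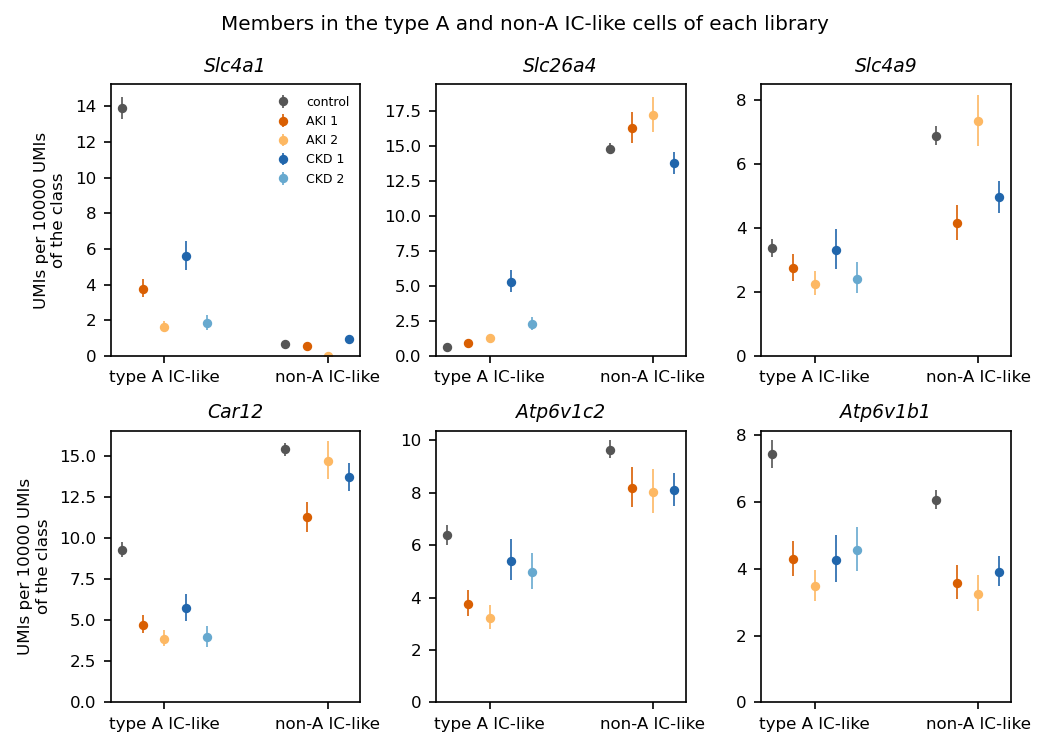
UMIs per 10000 UMIs of the class (y axes, linear) of 6 genes in type A and non-A IC-like cells (x axis), with 1 point per library and exact 95% Poisson bars for counting error. Slc4a1 lies at 1.63 to 13.9 in type A and at most 0.923 in non-A cells, Slc26a4 at 0.669 to 5.29 and 13.8 to 17.2, and Atp6v1b1 overlaps between the types.

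The control IC-like cells held more of several genes than those of every AKI and CKD library. Atp6v1a stood at 23.0 UMIs per 10000 in the control and 11.0 to 16.1 in the others, Atp6v1b1 at 6.44 and 3.37 to 3.95, Slc4a1 at 4.37 and 0.839 to 2.15, and Car12 at 14.2 and 6.72 to 11.2. Within type A IC-like cells the same order held, with Slc4a1 at 13.9 against 1.63 to 5.58 and Atp6v1a at 23.5 against 8.84 to 14.9. Atp6v1g3, at 54.5 in the control and 53.2 to 63.9 in the others, lay within their range. With 1 control library this difference was not tested, and the effect of injury and that of the library cannot be told apart.

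Other tubular cells used part of the IC set. CNT-like cells held Atp6v1b1 at 0.930 to 1.76 UMIs per 10000 (75.6 times the T lymphocyte-like level by the medians) and Atp6v0a4 at 1.51 to 2.30, with Atp6v1b1 making up 64.0 to 78.1% of their B subunit UMIs. Their Atp6v1g3 ranged from 0.0322 to 1.59 (median 0.262, T lymphocyte-like median 0.197) and their Atp6v0d2 from 0.0419 to 0.241 (median 0.0672, T lymphocyte-like median 0.0368), both highest in CKD 1. Atp6v1g3 made up 1.75 to 43.8% of their G subunit UMIs and Atp6v0d2 3.77 to 22.6% of the d subunit, while Atp6v1g1 made up 55.2 to 89.5% and Atp6v0d1 77.4 to 96.2%. PC-like cells held Atp6v1b1 at 0.503 to 1.84 and Atp6v1g3 at 1.54 to 5.24, beside Foxi1 at 0.185 to 1.39 and Slc4a1 at 0.450 to 1.34, which are IC genes. How much of the former comes from IC-like cells or RNA among the PC-like cells was not tested.

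PT-like cells mixed the sets in another way. Atp6v0a4 made up 69.1 to 74.0% of their a subunit UMIs, at 1.10 to 1.82 UMIs per 10000, while Atp6v1b2 made up a median of 98.9% of the B subunit, at 1.35 to 2.09, and Atp6v1g1 82.7 to 98.7% of the G subunit. Car2 held 6.98 to 9.26 in PT-like cells. The rare e subunit isoform Atp6v0e2, at most 0.0163 in IC-like cells, held 0.199 to 0.265 in PT-like and 0.313 to 0.572 in thin limb-like cells. Atp6v1g2, a G subunit known from neurons, held at most 0.161 in any tubular class and could not be compared at this depth in IC-like cells, where it had 14 UMIs in all.

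SM-like macrophages were compared with the other macrophage-like cells of the same library. In CKD, 14 of the 18 subunits tested were higher in SM-like cells, 2 were lower and 2 did not pass. Of all 11082 genes tested there, 25.6% were higher and 26.8% lower. The SM-like cells of the control and AKI went against their name. Acp5, a phosphatase of osteoclasts that helps define the class, held 0.0860 UMIs per 10000 in the control's SM-like cells, 4.47 and 13.1 in those of AKI, and 92.3 and 87.4 in those of CKD, and Ctsk was at 0 in the control and at 68.9 and 69.7 in CKD. SM-like cells numbered 52, 46, 74, 413 and 210, with 116287 UMIs in the control and 5209543 and 6255871 in CKD, and the CKD values therefore lead.

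Atp6v0d2 had the largest difference. SM-like cells held 0.0860, 0.998, 0.802, 8.60 and 8.39 UMIs per 10000 in control, AKI 1, AKI 2, CKD 1 and CKD 2, and the other macrophage-like cells 0.0946, 0.0431, 0.124, 1.52 and 0.994. The SM-like cells stood above the others in all libraries but the control, where the 0.0860 is a single UMI. The CKD fold was 7.30 (log2 2.87 ± 0.07 SE), and over 5 libraries 7.62 (log2 2.93 ± 0.33 SE, edgeR adjusted p = 8.6e-05). The fit over 5 libraries also takes in the control and AKI cells that went against their name. Atp6v0d2 made up 89.8% (95% interval 88.9 to 90.6%) and 88.6% (87.8 to 89.4%) of d subunit UMIs in SM-like cells of the CKD libraries, against 63.4% (61.0 to 65.8%) and 55.2% (52.4 to 57.9%) in the other macrophage-like cells, a difference of 26.4 and 33.5 points. In AKI, the other macrophage-like cells had it at 4.57 and 12.3%, so Atp6v0d1 was then the main d subunit.

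Over 5 libraries, 31 of the genes were tested, and 11 were higher and 1, Atp6v0a1, was lower in SM-like cells, where 20.2% of 12109 genes passed (7.31% higher and 12.9% lower). These counts rest in part on SM-like cells of the control and AKI, which lacked the Acp5 and Ctsk levels of CKD. In the CKD libraries alone, 26 were tested, and 20 were higher and 2 lower, where 52.3% of 11082 genes passed (25.6% higher and 26.8% lower). Their median log2 difference was 1.27, against -0.01 over all genes. The CKD fit rests on 2 libraries and a spread shared across genes. Without CKD 1 or without CKD 2, 3 of the 31 genes passed in the fit over the remaining 4 libraries (Atp6v0d2, Atp6v1b2 and Atp6v1d). Of all genes tested, 621 of 11190 passed without CKD 1 and 619 of 11077 without CKD 2. Without the library term none of 26 passed, with 47 of 10636 genes passing and 1990 at an unadjusted p under 0.05.

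Among the V1 subunits, Atp6v1a held 4.82 and 5.09 UMIs per 10000 in SM-like cells of CKD 1 and CKD 2 against 1.51 and 1.10 in the others (4.05-fold, log2 2.02 ± 0.07 SE in CKD). Atp6v1b2 held 6.21 and 7.25 against 1.82 and 1.74 (log2 2.00 ± 0.06 SE), and Atp6v1d 4.99 and 4.49 against 1.61 and 1.14 (3.69-fold). All pairs lay apart, and in the control the same genes held 0.516, 0.516 and 0.602 in SM-like cells. Of the V0 subunits, Atp6v0c held 38.1 and 36.4 against 15.3 and 13.4 (2.76-fold), Atp6v0b 14.1 and 13.1 against 6.72 and 5.44 (2.38-fold) and Tcirg1 2.95 and 3.99 against 1.45 and 1.54 (2.44-fold). IC-like cells of the same libraries held 36.0 and 29.4 of Atp6v0c and 13.4 and 11.1 of Atp6v0b. Atp6v0a1, a ubiquitous a subunit, was lower, with 0.0499 and 0.0432 against 0.166 and 0.188 (fold 0.277, log2 -1.85 ± 0.22 SE). Atp6v1g3 was the other lower subunit, with 0.104 and 0.0256 against 0.201 and 0.0267 (log2 -0.67 ± 0.24 SE). Its values in CKD 2 were nearly the same, and both classes lay below the T lymphocyte-like level of each library. The a subunits Atp6v0a2 (log2 -0.10 ± 0.17 SE) and Atp6v0a4 (log2 -0.51 ± 0.34 SE) did not pass, and Atp6v0e2, Atp6v1b1, Atp6v1c2 and Atp6v1g2 were too low to be tested.

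The partners of acid secretion followed the pump in CKD SM-like cells. Car2 held 2.12 and 1.79 UMIs per 10000 against 0.666 and 0.317 (4.37-fold), Slc4a2, the exchanger by which osteoclasts release bicarbonate, 0.870 and 0.964 against 0.267 and 0.215 (4.05-fold), and Clcn7 0.799 and 0.710 against 0.184 and 0.241 (3.73-fold). Ostm1 held 0.242 and 0.253 against 0.109 and 0.147. The IC genes stayed low in CKD SM-like cells. Slc26a4 held 0.00960 and 0.00320, Slc4a1 0.00192 and 0.00160, and Foxi1 0.00384 and 0.00160, each below T lymphocyte-like cells of the same library. Car12 and Atp6v1g3 held 0.0537 and 0.00799, and 0.104 and 0.0256, also below them.

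Of the lists fixed beside the 33 genes, 6 of 9 osteoclast partners were higher and 2 lower in CKD SM-like cells, where 25.6% of all genes were higher and 26.8% lower. These are counts of genes past the threshold in the CKD libraries, given as a description because the genes took part in the clustering. Slc9b2, a sodium-proton exchanger of osteoclasts, held 3.68 UMIs per 10000 on average against 0.375, Slc37a2 2.68 against 0.364, and the vesicle protein Snx10 3.27 against 0.530. The lysosomal membrane proteins Lamp1, at 1.14 against 3.65, and Lamp2, at 0.391 against 1.26, ran the other way. Of 11 tested assembly factors and regulators of the pump, 5 were higher and 1 lower, with Oxr1 at 0.413 against 0.182. Of the transcription factors, Mitf held 0.766 against 0.350 and Tfec 0.180 against 0.0909. C1qa, a macrophage marker, held 1.05 and 1.45 in SM-like cells of CKD and 22.0 and 23.1 in the other macrophage-like cells, so the macrophage markers were lower where the pump genes were higher. The part of this in the result was not tested.

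In all macrophage-like cells, CKD and AKI libraries were then compared (2 against 2). The V-ATPase genes were higher in CKD: of 30 genes tested, 17 were higher and 1 was lower, where 42.6% of 12308 genes passed (21.1% higher and 21.5% lower). The median log2 fold change was 0.65 over these genes and -0.01 over all. SM-like cells made up 413 of 1273 and 210 of 688 macrophage-like cells in CKD and 46 of 760 and 74 of 1155 in AKI. Without them, 10 of 26 genes were higher and 1 lower, where 33.9% of 11383 genes passed (17.2% higher and 16.8% lower), and the median was 0.25.

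Atp6v0d2 changed most, from 0.0711 and 0.155 UMIs per 10000 in AKI to 4.62 and 4.45 in CKD (34.5-fold, log2 5.11 ± 0.27 SE, edgeR adjusted p = 4e-05). Without SM-like cells it rose 12.6-fold (log2 3.65 ± 0.36 SE), from 0.0431 and 0.124 to 1.52 and 0.994. Car2 rose from 0.159 and 0.157 to 1.31 and 1.01 (6.51-fold, log2 2.70 ± 0.15 SE), and 2.83-fold without SM-like cells. Its level in T lymphocyte-like cells was 0.260 to 0.583 in the AKI and CKD libraries. Its AKI values in macrophage-like cells lay below that range. Atp6v1b2 rose from 0.629 and 0.746 to 3.74 and 4.32 (5.21-fold, log2 2.38 ± 0.13 SE), and 2.37-fold without SM-like cells. Slc4a2 rose from 0.132 and 0.123 to 0.531 and 0.565 (3.85-fold). The AKI and CKD libraries did not overlap for any of these genes, and the control lay at 0.0941 for Atp6v0d2, 0.623 for Car2, 0.421 for Atp6v1b2 and 0.179 for Slc4a2.

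The common subunits rose less. Atp6v1a went from a mean of 0.793 in AKI to 2.96 and 2.97 UMIs per 10000 in CKD (3.33-fold), Atp6v1d from 0.839 and 0.867 to 3.09 and 2.71 (3.02-fold), and Atp6v0e of the V0 sector from 2.16 and 2.48 to 7.82 and 6.49 (2.74-fold). Atp6v1c1, Atp6v1e1, Atp6v0c, Atp6v0b, Atp6v1g1, Tcirg1, Atp6v1h, Clcn7, Atp6v1f and Atp6ap2 rose between 1.45- and 2.61-fold. Of these, Tcirg1, Atp6v1e1, Atp6v1f, Atp6v1g1, Atp6v1h, Atp6ap2 and Clcn7 did not pass without SM-like cells. Atp6v0a1 fell in CKD, from 0.330 and 0.324 to 0.115 and 0.120 (fold 0.321, log2 -1.64 ± 0.12 SE), and also without SM-like cells (fold 0.480). Atp6v0d1, at 0.901 and 0.905 in AKI and 0.918 and 0.932 in CKD, did not pass (log2 -0.13 ± 0.09 SE), nor did Atp6ap1 (log2 0.02 ± 0.09 SE).

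Genes outside the list are read against the 21.1% of all genes that were higher and the 21.5% that were lower in CKD. Of 9 osteoclast partners, 5 were higher and 2 lower, among them Slc9b2 (log2 7.64 ± 0.20 SE) and the lysosomal Lamp2 (log2 -1.65 ± 0.09 SE). Of 11 assembly factors and regulators, 4 were higher and 3 lower. Of 17 further acid-base genes, 1 was higher, Glud1, and 3 were lower, among them Slc9a4 and Slc26a11. Of 6 transcription factors, Mitf was higher (log2 0.89 ± 0.13 SE) and Tfe3 lower (log2 -0.82 ± 0.20 SE). All 4 macrophage markers fell (C1qa, C1qb, C1qc and Lyz2, log2 -1.99 to -2.43), with the summed macrophage markers at 141 and 140.0 UMIs per 10000 in AKI and 44.2 and 45.0 in CKD, and of the T lymphocyte markers Trbc2 rose (log2 1.02 ± 0.33 SE). None of the proximal tubule or principal cell markers passed. The part of these in the result was not tested, and for macrophage-like cells as a whole a change per cell and a change in the mix of subsets cannot be told apart.

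**Figure D4:**
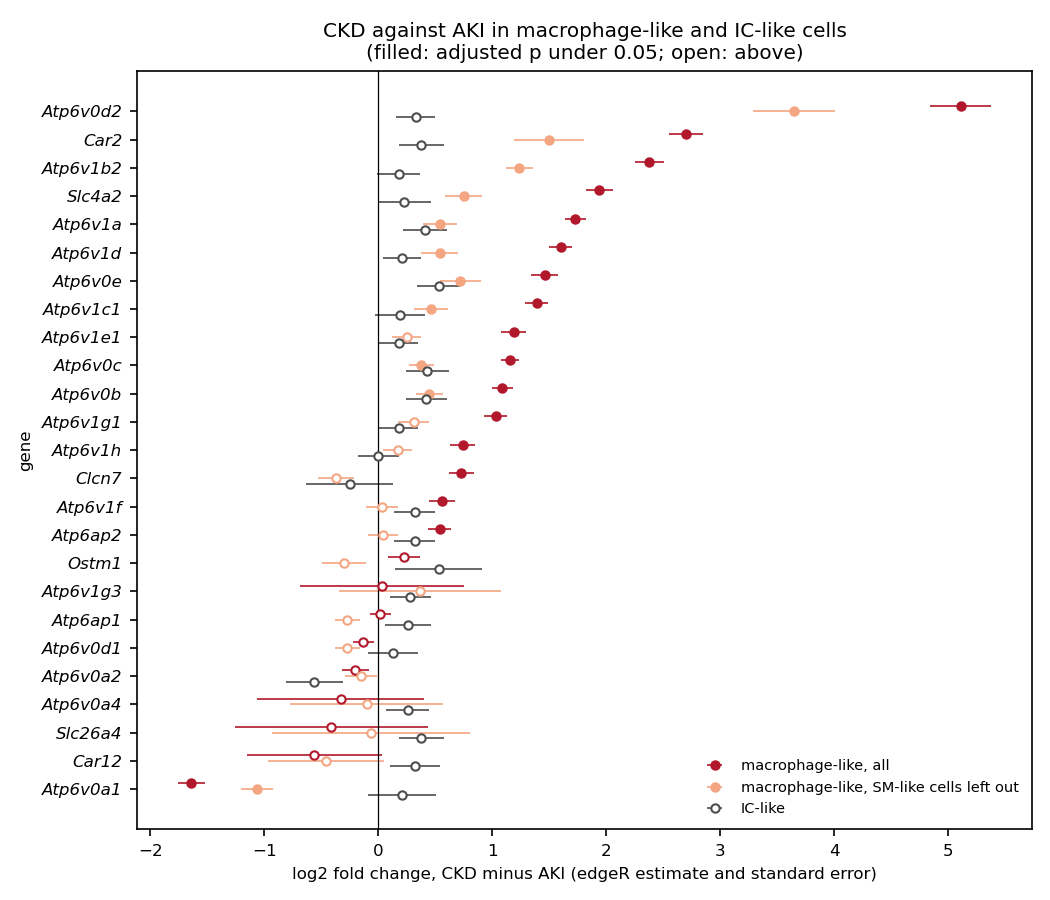
The log2 fold change from AKI to CKD (x axis, edgeR estimate with its standard error) of the genes tested in all 3 settings (y axis), for macrophage-like cells, for macrophage-like cells without SM-like cells, and for IC-like cells, 2 libraries against 2. Filled points passed at an adjusted p under 0.05; Atp6v0d2 lies at 5.11 and 3.65 in macrophage-like cells, and no IC-like point is filled.

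The same genes did not pass in IC-like cells. None of 30 genes tested passed between CKD and AKI (edgeR quasi-likelihood test, and none with DESeq2), where 0.128% of 8588 genes passed (1 gene, or 0.0116%, higher and 0.116% lower) and 837 had an unadjusted p under 0.05. Of the 30, Atp6v0a2, Atp6v0b, Atp6v0c, Atp6v0e, Atp6v1a and Atp6v1c2 had such an unadjusted p. The median log2 fold change was 0.24 over the 30 genes and -0.01 over all genes. Atp6v1g3 held 54.7 and 53.2 UMIs per 10000 in AKI and 58.2 and 63.9 in CKD (log2 0.28 ± 0.18 SE), and Atp6v0d2 8.71 and 7.73 and then 9.23 and 9.93 (log2 0.33 ± 0.17 SE). Atp6v1b1, at 3.95 and 3.37 and then 3.88 and 3.65, overlapped (log2 0.15 ± 0.18 SE), as did Foxi1 (log2 -0.29 ± 0.20 SE). Without CKD 2, which leaves 1 CKD library, 5 of 31 genes tested passed, all higher in CKD 1 (Atp6v0b, Atp6v0c, Atp6v0e, Car12 and Slc26a4, log2 0.61 to 0.74), where 311 of 9128 genes passed, 175 higher and 136 lower. Outside the list, Acp5 rose (log2 2.83 ± 0.50 SE), from 0.0245 and 0.0345 UMIs per 10000 in AKI to 0.207 and 0.188 in CKD. T lymphocyte-like cells held more of it in each of these libraries (0.742, 0.890, 0.993 and 0.890). Ctsk and Mmp9, the other markers of SM-like cells, went in IC-like cells from 0.0163 and 0.0345 to 0.123 and 0.110 and from 0 and 0 to 0.0614 and 0.0662, and T lymphocyte-like cells of CKD held 0.259 and 0.143 of Ctsk. The part of free RNA in the Acp5 result was not tested. In IC-like cells the principal cell marker Fxyd4 fell (log2 -1.64 ± 0.30 SE). The sums rest on 100 and 69 cells in AKI and 110 and 56 in CKD.

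In PT-like cells, the site of the toxin's injury, none of 29 genes tested passed either, where 0.575% of 12005 genes passed (0.416% higher and 0.158% lower) and 1697 had an unadjusted p under 0.05. DESeq2 passed none of the 29 either. Some settings did pass IC genes, all higher in CKD. Atp6v1g3, Atp6v0d2, Atp6v1b1, Atp6v1c2, Slc4a1 and Slc26a4 passed without the filter on low counts (6 of 33 genes tested, with 1008 of 18766 genes passing) and without CKD 2 (6 of 32, with 660 of 12567 genes passing), Atp6v1g3 and Atp6v0d2 with the replicate block (2 of 29, with 711 of 12005 genes passing), and Atp6v1g3 without AKI 1 (1 of 32, with 349 of 12630 genes passing). Atp6v1c1 had log2 -0.55 ± 0.17 SE and Atp6v1b2 log2 -0.45 ± 0.19 SE. The IC isoforms had the largest estimates, Atp6v1g3 at log2 2.85 ± 0.99 SE and Atp6v1b1 at 1.93 ± 0.83 SE. These rest on CKD 1, where PT-like cells held 1.05 UMIs of Atp6v1g3 per 10000 against 0.0448 to 0.122 in AKI and 0.0596 in CKD 2, and Ctsk held 0.927 there against 0.128 in CKD 2. Whether the change from AKI to CKD differs between macrophage-like and IC-like cells was not tested.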

How the data were processed

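The authors aligned reads of 3′ single-cell libraries to GRCm39 with Cell Ranger 7.2.0 and STAR, per the labels and methods, although the matrix headers of the AKI and CKD libraries name another Cell Ranger release and the gene list of the control names the older build mm10. The deposited values are raw UMI counts per gene and barcode. The deposited UMIs per library were 114052330 in the control, 91829909 and 90028670 in AKI and 121316769 and 96860474 in CKD. Barcodes over 30% mitochondrial UMIs or under 200 genes were dropped, which left 60043, simulated-doublet neighbours were removed, and cells were clustered without the 33 genes (3000 variable genes, 40 components, a Harmony-style correction by library, Leiden resolution 1.5; scikit-learn 1.9.0, leidenalg 0.10.2). Classes were named from fixed markers. Subclusters past a set level of markers of another class were set aside by a rule settled after seeing them. UMIs were summed per library and class of at least 20 cells and tested with edgeR 4.0.16 (TMM, filterByExpr, quasi-likelihood F test, Benjamini-Hochberg threshold 0.05), with the library as a term where classes were compared within libraries. The script was checked on simulated data. Alternatives were DESeq2 1.42.0, library totals, filters, clustering choices and each library left out. The 33 genes, the further lists and the tests were chosen with earlier results of these data known. Values in every library are given for a part of the genes of the list that passed or were the main isoform of a subunit. Others that passed are given as folds, ranges or counts only. Up to 4 passing genes of each further list were chosen by size of change. The further lists hold assembly factors and regulators, other acid-base genes, transcription factors, osteoclast partners and markers of other cells. Genes of those lists named beyond this, such as Lamp1 and Lamp2, were chosen after their values were seen.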

Additional observations from a re-analysis of the deposited data

Results flagged for a closer look

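For 5 genes both CKD libraries lay on the opposite side of both AKI libraries in PT-like cells and in macrophage-like cells, and for 2 of them the same held between PT-like and IC-like cells. The difference between the classes was not tested. The values are log2 ratios of the mean level in CKD to that in AKI. Atp6v1b2, the ubiquitous B subunit, had 2.55 in macrophage-like and -0.46 in PT-like cells. Car2, the cytosolic carbonic anhydrase, had 2.87 in macrophage-like, 0.28 in IC-like and -0.33 in PT-like cells. Atp6v1a, the catalytic subunit, had 1.90 in macrophage-like, 0.31 in IC-like and -0.26 in PT-like cells. Atp6v1c1 had 1.55 in macrophage-like and -0.57 in PT-like cells, and Atp6v0d1 had 0.04 and -0.23. These ratios carry no TMM scaling, and with it the edgeR estimate of Atp6v0d1 was log2 -0.13 ± 0.09 SE in macrophage-like and -0.21 ± 0.17 SE in PT-like cells, so its direction no longer differed. None of these genes passed the edgeR test within PT-like or IC-like cells.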

How the results depend on the processing

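The higher Atp6v0d2 share of SM-like cells in CKD, 29.9 points, was 43.4 as a mean over cells, 18.6 without correction by library, 24.6 with doublets kept and 13.3 with the 33 genes kept in the clustering. Genes passing between CKD and AKI in macrophage-like cells (5245) ranged from 3394 to 5592 with 1 library left out. In IC-like cells (11) they were 132 without the filter, 18 with library totals, 0 without correction or with the 33 genes in the clustering, 5 with set-aside cells kept, and 0 to 311 with 1 library left out (311 without CKD 2). In PT-like cells (69) they were 221 with DESeq2, 1008 without the filter, 199 without correction, 1 with doublets kept, 164 with the 33 genes in the clustering, and 83 to 660 with 1 library left out. For SM-like against other macrophage-like cells (2442) they were 1479 with DESeq2, 5800 in CKD only, 47 without the library term (no replicate block), and 619 to 3386 with 1 library left out. There, 5298 passed without correction, 5691 with doublets kept, 5587 at a mitochondrial limit of 15% and 5336 with the 33 genes in the clustering, settings that left 2 libraries. Clcn7 reversed to log2 -0.37 in macrophage-like cells without SM-like cells, and Ostm1 to 0.07 between IC-like and macrophage-like cells with library totals. The counts between IC-like and macrophage-like cells stayed within 1.5 times of 7890. The cause of these shifts was not tested. Same-numbered AKI and CKD libraries share only a number (correlation of deviations 0.14 to 0.24 over 2 pairs), and a replicate block gave 5287 genes in macrophage-like, 101 in IC-like and 711 in PT-like cells. In IC-like against macrophage-like cells, values of the named genes kept direction and side of the threshold in 362 cases and missed the threshold in 37. For SM-like cells this was 155 and 37, and for macrophage-like cells in CKD against AKI 243 and 8.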
